A study of Mus musculus with 8 samples.

Results

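The genes described here encode parts of the splicing machinery and related RNA-binding proteins. They were chosen by name from the deposited table, as protein-coding genes of GENCODE M21 (GRCm38) whose symbols start with Srsf, Sf3, Snrp, Hnrnp, Prpf, Lsm, Rbm, Ddx or Dhx. The annotation holds 179 such genes, and 28 of them were among the 2372 rows of the table. The study compared bulk RNA of the medial prefrontal cortex (mPFC) from 4 CaKO mice, adult and male, genotype CamK2A-Cre;Gpr158flox/flox, with that of 4 male Gpr158flox/flox littermates as controls. All 8 animals were naive, on a C57Bl/6J background and carried the floxed Gpr158 alleles, so the groups differ in Cre. The stated purpose was to look for transcripts behind a loss of glutamate vesicles in these mice. The CamK2A promoter drives Cre in forebrain excitatory neurons, and the other cells of the dissected tissue keep the gene for GPR158, an orphan receptor. In such bulk RNA, fewer cells of a type and less RNA per cell cannot be told apart.

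Splicing removes introns from pre-mRNA and is carried out by the spliceosome, which is built anew on each intron from small nuclear ribonucleoproteins (snRNPs) and many other proteins. Each snRNP holds a short RNA around which Sm or LSm proteins close a ring. SR proteins and hnRNPs bind the pre-mRNA and shift the choice of exons, and DEAD-box and DEAH-box helicases drive the changes of shape between steps. Neurons use alternative splicing heavily, in transcripts for channels, adhesion proteins and synaptic proteins among others.

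The sequences just upstream of the start sites are shown for 6 of these genes, 3 that fell in CaKO (Prpf3, Lsm11 and Ddx39b) and 3 with positive fold changes that were not called (Snrpe, Srsf2 and Srsf7). They are those of the called, Sm and SR genes whose RefSeq start lies within 11 bases of the start of the deposited gene. Each is the 150 bases before the start, 5′ to 3′ on the gene's strand, from RefSeq on GRCm38.p6. Capitals mark matches on either strand to any of 6 motifs: CCGGAAG (the core bound by ETS factors), CCAAT (the CCAAT box), GGGCGG (the GC box), GCATGCGC (a motif of the NRF1 type), CACGTG (the E-box) and TATAAA (the TATA box). None of the 6 lies within another.
Prpf3 chr3:95855886-95856035, minus strand: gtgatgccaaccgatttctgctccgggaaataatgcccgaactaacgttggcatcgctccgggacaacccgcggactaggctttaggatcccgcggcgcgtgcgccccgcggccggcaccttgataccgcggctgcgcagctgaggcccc
Lsm11 chr11:45944936-45945085, minus strand: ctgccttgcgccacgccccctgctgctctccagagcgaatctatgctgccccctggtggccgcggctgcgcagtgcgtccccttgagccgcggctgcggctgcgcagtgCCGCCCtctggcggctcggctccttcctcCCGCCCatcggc
Ddx39b chr17:35241596-35241745, plus strand: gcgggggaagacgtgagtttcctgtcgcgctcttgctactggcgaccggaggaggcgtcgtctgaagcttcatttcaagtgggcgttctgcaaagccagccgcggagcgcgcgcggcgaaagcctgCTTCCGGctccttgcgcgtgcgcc
Snrpe chr1:133610281-133610430, minus strand: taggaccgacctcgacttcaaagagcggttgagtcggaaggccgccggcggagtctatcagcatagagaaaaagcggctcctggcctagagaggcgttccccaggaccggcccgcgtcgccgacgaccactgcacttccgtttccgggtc
Srsf2 chr11:116853095-116853244, minus strand: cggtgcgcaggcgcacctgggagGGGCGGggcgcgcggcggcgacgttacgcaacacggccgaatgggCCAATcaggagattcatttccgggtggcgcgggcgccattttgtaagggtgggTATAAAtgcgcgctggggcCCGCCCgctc
Srsf7 chr17:80207306-80207455, minus strand: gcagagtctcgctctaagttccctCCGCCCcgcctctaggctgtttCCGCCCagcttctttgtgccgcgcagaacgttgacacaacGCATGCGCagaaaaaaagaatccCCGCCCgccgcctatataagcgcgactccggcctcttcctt

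The windows differ in these motifs within each direction. Prpf3 and Snrpe hold none of the 6, Lsm11 holds GC boxes alone and Ddx39b an ETS core alone. Srsf2 holds a CCAAT box, GC boxes and a TATA box, and Srsf7 holds GC boxes and the NRF1-type motif. RefSeq windows were found for 23 of the 28 genes, those of Snrpb, Sf3b5, Lsm1, Lsm4 and Prpf18 being missing. Of the 23, 12 hold a CCAAT box (52.2%), against 24.5% of all 32851 windows of the same length. GC boxes were in 10 (43.5%, against 28.6%), ETS cores in 4 (17.4%, against 5.52%), TATA boxes in 2 (8.70%, against 7.57%), the NRF1-type motif in 2 (8.70%, against 1.82%) and E-boxes in 0 (against 4.30%). CCAAT boxes stood before 6 genes with a positive fold change and 6 with a negative one, GC boxes before 5 and 5, and ETS cores before 2 and 2. Snrpf, which was left out of the authors' adjustment, is among the 6 positive genes with a CCAAT box. The windows of the members were also richer in G and C, with a median of 62.0% against 54.0% for all windows. All windows include genes of any expression and were not matched to the members in G and C. Genes of the 9 families without a row were not scanned, so whether these shares are particular to the listed genes was not tested. A match is a description of the letters and no evidence of a bound factor.

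The table gives a normalised read count for each CaKO library and, for the comparison of CaKO with control, the authors' log2 fold change, p and adjusted p, and it lists genes with a p below 0.05. Values of the single control libraries were not used here, and every control level below is the one implied by the CaKO mean and the fold change. For rows listed by a low p, CaKO values past that level are close to given in advance. They are therefore no separate support for a change. Reads over the listed genes came to 2832931 to 3183638 per CaKO library, of which 0.586% to 0.674% of the normalised counts fell on the 28 genes. The extreme values were unevenly divided among the libraries. CaKO replicate 3 held the lowest of the 4 values in 748 of the 2047 rows that entered the authors' adjustment (36.5%), and in 69.0% of the 255 rows that fell. Replicate 4 held the highest value in 729 of the 2047 (35.6%), and replicate 1 the lowest in 86 of the 164 rows that rose. No row overlapped Gpr158 (chromosome 2: 21367542 to 21830547), so the deleted gene is not among the genes listed at a p below 0.05. The genotype labels were therefore not checked against it, and why it has no row was not tested.

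Among the splicing and RNA-binding protein genes, 3 rose in CaKO (Lsm4, Lsm1 and Snrpb) and 5 fell (Sf3b5, Prpf3, Snrpd2, Lsm11 and Ddx39b). These 8 calls rest on an adjusted p below 0.05 per the authors' deposited table. The 8 are 4.47% of the 179 annotated genes, against 3.24% of the 12938 genes in the adjustment, where 1.27% rose and 1.97% fell. At an unadjusted p below 0.05, 13 of the genes were higher and 14 lower per the authors' deposited table. Together these 27 are 15.1% of the 179, against 15.8% of the 12938 (7.14% higher and 8.68% lower). The share of the families that is listed is thus close to the background, and the annotated families include genes that may not have entered the adjustment. Among listed rows in the adjustment, 29.6% of the members and 20.5% of all rows were called, and all of these rows were listed for a low p. The median log2 fold change of the 27 was -0.19 per the authors' deposited table, against -0.22 over the 2047 rows. It became 0.21 when the Rbm, Ddx and Dhx genes were left out. All rows were listed for a low p, and no fold change of the 27 lies between -0.19 and 0.18. The sign of this median therefore tells which direction holds more listed genes. It does not measure a shift of the families. None of the 27 differed by more than 2-fold, and the other 151 annotated genes have no row.

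**Figure D1:**
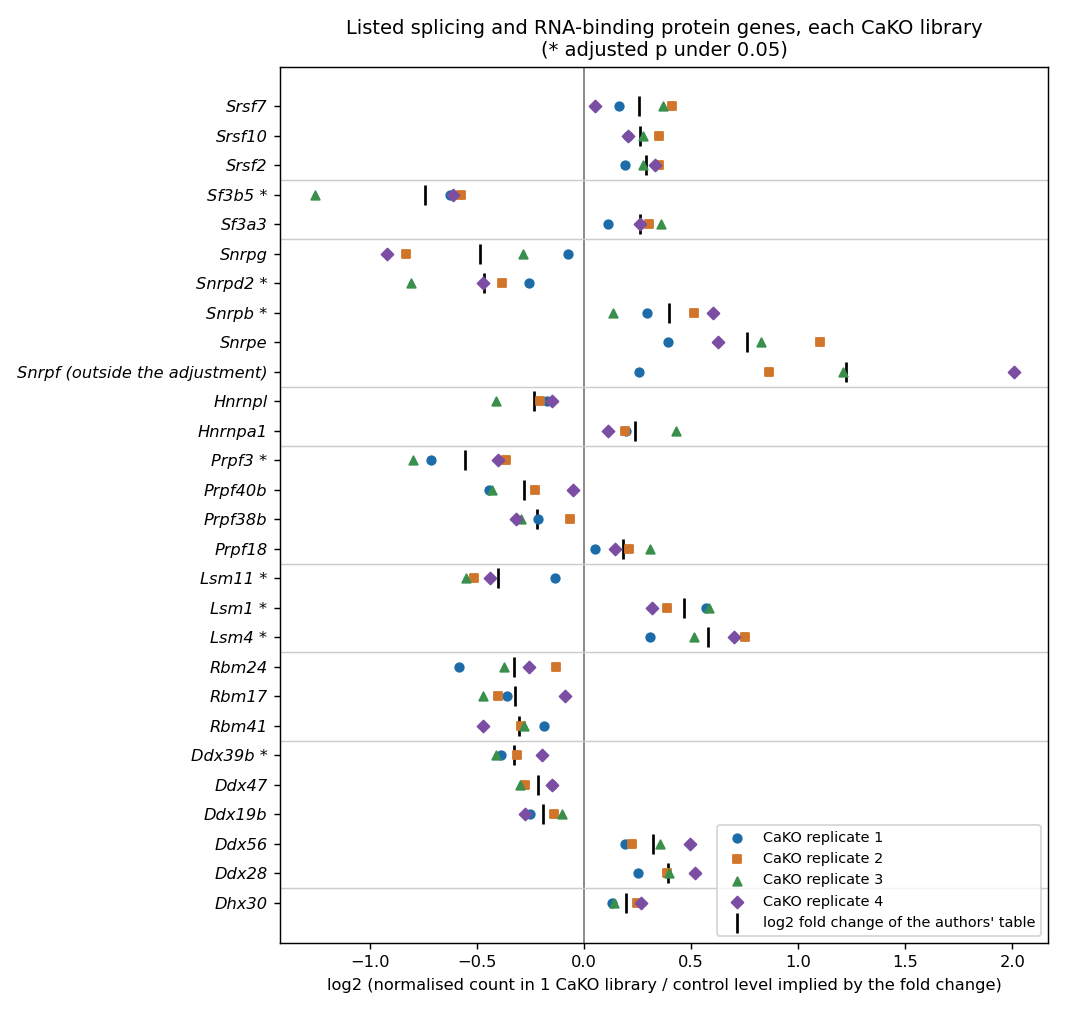
The 28 listed genes by family, with each CaKO library's normalised count divided by the control level that the deposited fold change implies, on a log2 axis. Black ticks are the fold changes of the authors' table and stars mark the 8 called genes, and in Sf3b5 replicate 3 lies apart from the other 3 libraries.

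Of the genes for the 7 proteins of the Sm ring, 1 rose (Snrpb) and 1 fell (Snrpd2). The ring is the core of the spliceosomal snRNPs, and 5 of the 7 genes were in the table, 2 higher and 2 lower within the adjustment. Snrpb encodes the Sm proteins B and B′ (chromosome 2: 130171414 to 130179403, minus strand). It stood at 618, 719, 555 and 766 normalised counts in CaKO replicates 1 to 4 (mean 665 ± 95.7, SD, n = 4). All 4 values lie above the implied control level of 504, with replicate 3 the closest to it. Snrpb rose 1.32-fold per the authors' deposited table (a log2 fold change of 0.40, adjusted p = 0.0320). The 95% interval implied by its p runs from 0.17 to 0.63.

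Snrpd2, which encodes Sm protein D2 (chromosome 7: 19149722 to 19153542, plus strand), went the other way. Its counts were 419, 385, 286 and 362 (mean 363 ± 56.3, SD, n = 4), with replicate 3 lowest and all 4 below the implied control level of 502. It fell to 72.3% of control per the authors' deposited table (a log2 fold change of -0.47, adjusted p = 0.0244), and its p implies an interval from -0.73 to -0.20. A near-identical copy, Gm10120, could share its reads.

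The remaining Sm genes did not pass. Snrpe, for Sm protein E, had counts of 172, 282, 233 and 202, above an implied control level of 131. Its log2 fold change of 0.76 was the largest positive value of the 27 per the authors' deposited table (adjusted p = 0.0878), with an implied interval from 0.24 to 1.28 and a near-identical copy, Snrpert. Snrpg, for Sm protein G, had counts of 122, 72.1, 105 and 67.7, which split into a higher pair (replicates 1 and 3) and a lower pair. Its log2 fold change per the authors' deposited table came to -0.48 (adjusted p = 0.285), and the copy Gm8186 could share reads with it. Snrpf, for Sm protein F, is the least covered of the 28, at 21.1, 32.1, 40.8 and 70.9 counts. It was left out of the authors' adjustment, and Ccdc38 on the opposite strand covers 85.4% of its exon sequence, so its log2 fold change of 1.22 per the authors' deposited table is given without a call. Snrpf, Snrpg and Snrpe had the widest spread of the 28 genes. Their coefficients of variation over the CaKO libraries were 51.8%, 28.4% and 21.1%, against 15.7%, 10.5% and 6.74% from counting error alone.

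Of the 14 annotated Lsm genes, 3 were called (21.4%, against 3.24% of the 12938 genes in the adjustment). The other 11 have no row. The 3 calls are 2 rises and 1 fall, and the Srsf, Hnrnp, Rbm and Dhx families had no call. LSm proteins form rings related to the Sm ring: a cytoplasmic ring with LSm1 that starts mRNA decay, and a nuclear ring that carries the U6 snRNA. Lsm1, the subunit that marks the cytoplasmic ring (chromosome 8: 25785288 to 25803975, plus strand), stood at 286, 252, 289 and 241 (mean 267 ± 24.3, SD, n = 4). It rose 1.38-fold per the authors' deposited table (a log2 fold change of 0.47, adjusted p = 0.0146). Lsm4, a subunit of both rings (chromosome 8: 70673248 to 70678752, plus strand), stood at 271, 369, 313 and 355 (mean 327 ± 44.1, SD, n = 4). Its rise of 1.49-fold was the largest among the 8 calls in the upward direction per the authors' deposited table (a log2 fold change of 0.58, adjusted p = 0.0190). Every CaKO library of Lsm1 and Lsm4 lies above the implied control levels of 193 and 219, and the implied intervals run from 0.22 to 0.72 and from 0.26 to 0.89.

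Lsm11 belongs to a different particle, the U7 snRNP, which processes the 3′ ends of histone mRNAs. At chromosome 11: 45928269 to 45944935 (minus strand), it had counts of 1122, 864, 841 and 909 (mean 934 ± 128, SD, n = 4). Replicate 1 was the highest and the nearest to the implied control level of 1233. It fell to 75.8% of control per the authors' deposited table (a log2 fold change of -0.40, adjusted p = 0.0146), with an implied interval from -0.61 to -0.19. Of the subunits of the cytoplasmic LSm ring, 2 of 7 were in the table, and of the nuclear ring 1 of 7.

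Among the SF3 genes, whose products belong to the U2 snRNP and hold the branch point of the intron, Sf3b5 had the smallest adjusted p of the 28. This small subunit of the SF3B complex (chromosome 10: 13005343 to 13009183, plus strand) is also found in the SAGA coactivator. Its counts were 308, 319, 199 and 311 (mean 284 ± 56.9, SD, n = 4), against an implied control level of 475. Replicate 3 was far below the other libraries, which lie between 307.5 and 318.6. Sf3b5 fell to 59.7% of control per the authors' deposited table (a log2 fold change of -0.74, adjusted p = 0.000158), and its p implies an interval from -1.03 to -0.46. Without replicate 3 the log2 fold change was -0.61 and the call was kept. Phf5a, another SF3B subunit whose symbol lies outside the 9 prefixes, had counts of 301, 361, 393 and 341. It rose by 0.52 on the log2 scale per the authors' deposited table (adjusted p = 0.00481), so the 2 listed subunits of the 7 in SF3B moved apart. Sf3a3, of the SF3A complex, was at 366 ± 26.1 (SD, n = 4), with a log2 fold change of 0.26 per the authors' deposited table (adjusted p = 0.263).

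Of the 13 annotated Prpf genes, named for yeast pre-mRNA processing factors, 3 were lower, 1 was higher and 9 have no row. Prpf3, a protein of the U4/U6 snRNP (chromosome 3: 95830124 to 95855885, minus strand), is one of the less abundant members, at 123, 156, 115 and 152 counts (mean 137 ± 20.6, SD, n = 4). Replicates 1 and 3 lie below replicates 2 and 4, and all 4 lie below the implied control level of 201. Prpf3 fell to 67.9% of control per the authors' deposited table (a log2 fold change of -0.56, adjusted p = 0.0361), with an implied interval from -0.89 to -0.23. Prpf40b, related to a U1-associated yeast factor, and Prpf38b had log2 fold changes of -0.28 and -0.22 (adjusted p = 0.313 and 0.194) per the authors' deposited table. Prpf18, which acts in the second catalytic step, stood at 887 ± 66.7 (SD, n = 4) and had a log2 fold change of 0.18 per the authors' deposited table (adjusted p = 0.309).

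All 3 listed SR protein genes had positive fold changes, and none was called. SR proteins bind exonic enhancers through an RNA recognition motif and recruit the spliceosome through a domain rich in arginine and serine. Srsf2 stood at 1357, 1518, 1441 and 1498 normalised counts, with replicate 1 lowest. Srsf7 stood at 1638, 1948, 1892 and 1518, with replicates 2 and 3 above the others. Srsf10, which represses splicing when dephosphorylated, stood at 1515, 1674, 1591 and 1513, with replicate 2 highest. The implied control levels of 1189.9, 1466 and 1315 lie below every one of these values, which is close to given for a listed gene. The log2 fold changes per the authors' deposited table were 0.29 (adjusted p = 0.108), 0.26 (adjusted p = 0.182) and 0.26 (adjusted p = 0.109), with unadjusted p of 0.00623, 0.0166 and 0.00641. Another gene on the opposite strand, Mettl23, covers 25.3% of the exon sequence of Srsf2, and Srsf10 has the copies Gm5446 and Gm9134. The other 8 of the 11 annotated Srsf genes have no row.

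Of the 20 annotated hnRNP genes 2 were in the table, and neither was called. These abundant nuclear proteins coat pre-mRNA, and several of them silence exons. Hnrnpa1, a classic antagonist of SR proteins, stood at 1739.8, 1737, 2049.9 and 1641, with replicate 3 highest. Its log2 fold change per the authors' deposited table came to 0.24 (adjusted p = 0.177), and 4 near-identical copies could share its reads. Hnrnpl, which binds CA-rich RNA, stood at 1744, 1703, 1475 and 1769, with replicate 3 lowest. Its log2 fold change per the authors' deposited table came to -0.23 (adjusted p = 0.128). Replicate 3 was therefore the extreme library in both genes, at opposite ends.

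The 3 listed Rbm genes were all lower and none was called, out of 47 annotated. Rbm17, a splicing factor also known as SPF45, had counts of 363, 352, 335 and 438, with replicate 4 highest. Rbm24, a regulator best known from muscle, had counts of 231, 317, 267 and 289.7, with replicate 1 lowest. Rbm41, the least abundant member per length, had counts of 122, 113, 114 and 100.0. Their log2 fold changes per the authors' deposited table were -0.32 (adjusted p = 0.176), -0.33 (adjusted p = 0.180) and -0.30 (adjusted p = 0.309).

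Of the helicases, Ddx39b alone was called. It encodes UAP56, a DEAD-box protein that helps load the U2 snRNP and couples splicing to mRNA export (chromosome 17: 35241746 to 35253707, plus strand). Its counts were 1115, 1172, 1095 and 1271 (mean 1163 ± 79.3, SD, n = 4), all below the implied control level of 1458. The fall to 79.8% of control was the smallest of the 8 called changes per the authors' deposited table (a log2 fold change of -0.33, adjusted p = 0.0357), with an implied interval from -0.52 to -0.13. Ddx28, a mitochondrial ribosome assembly factor, was the next closest to a call, at 192, 211, 213 and 231 and a log2 fold change of 0.39 per the authors' deposited table (adjusted p = 0.0771). Dhx30, which acts in mitochondrial RNA granules, stood at 1722 ± 83.4 (SD, n = 4) with a log2 fold change of 0.20 per the authors' deposited table (adjusted p = 0.157). Ddx56 and Ddx47, which act in ribosome assembly, had log2 fold changes of 0.32 and -0.22 (adjusted p = 0.207 and 0.268) per the authors' deposited table. Ddx19b, an RNA export helicase of the nuclear pore, stood at -0.19 per the authors' deposited table (adjusted p = 0.275). Of the 37 Ddx and 16 Dhx genes in the annotation, 5 and 1 are listed.

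The members spanned a wide range of abundance in CaKO cortex. Per kilobase of exon, Srsf7 was the highest at 767 normalised counts, followed by Hnrnpa1 (568) and Srsf2 (491), and Rbm41 was the lowest at 16.9. The called genes lay across this order, from Snrpb (336 per kilobase), Lsm4 (315) and Ddx39b (307) through Lsm11 (145) and Snrpd2 (139) to Lsm1 (86.4), Sf3b5 (73.9) and Prpf3 (24.1). The libraries of Srsf7, Hnrnpa1 and Srsf2 did not overlap, so the order of these 3 exceeds their spread. Snrpb, Lsm4 and Ddx39b are neighbours whose libraries overlap, as do Lsm11 and Snrpd2. The exon length comes from the deposited table, and Srsf7 was matched to GENCODE M21 by overlap, its coordinates in the 2 not being identical. The median over the 27 members was 145 per kilobase, against 136 for all 2047 rows.

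**Figure D2:**
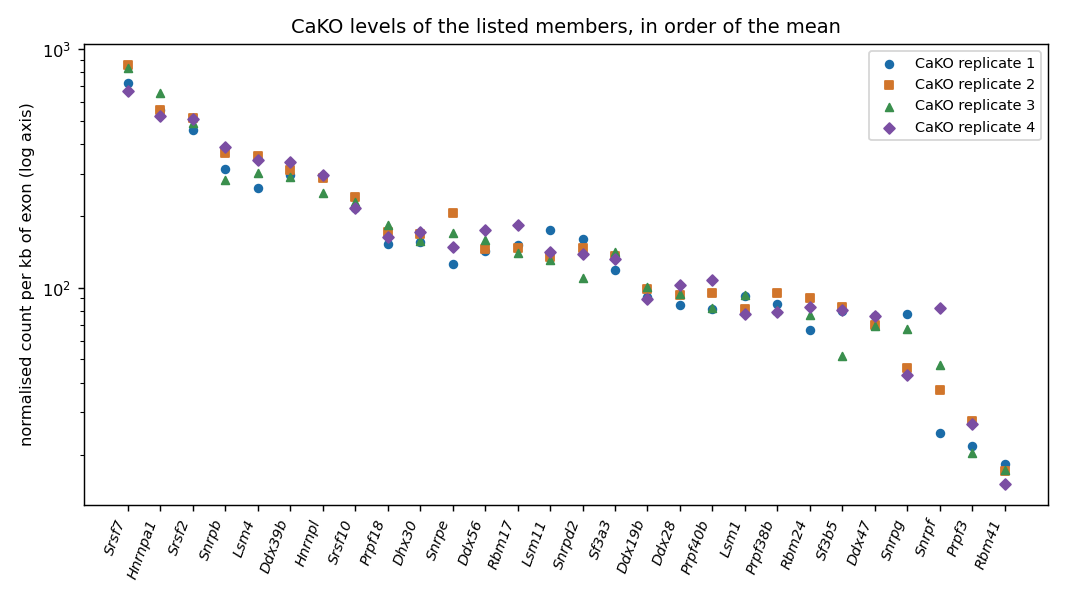
Normalised count per kilobase of exon (log axis) of each listed gene in each CaKO library, in order of the mean. Srsf7, Hnrnpa1 and Srsf2 lie at the top, and the libraries of Snrpg and Snrpf are spread the widest.

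The spread between CaKO libraries was narrow for most members, and the lowest values were unevenly divided among the libraries. The median coefficient of variation was 9.78% for the 27 members, against 11.9% for all 2047 rows. Among the 14 lower genes, replicate 3 held the lowest value in 8, among them all 5 called ones. Among the 13 higher genes, replicate 1 held the lowest value in 8, and replicate 3 in 1. The same libraries stood out over all called rows. Replicate 3 was lowest in 69.0% of the 255 that fell, and replicate 1 in 86 of the 164 that rose. On the log2 scale, the deposited fold change was larger than the range over the 4 CaKO libraries in 15 of the 27 genes, against 797 of all 2047 rows. Among called genes it was larger in 5 of 8 members (62.5%) and in 68.3% of all 419 called rows. All 4 libraries lay past the implied control level in each of the 28 genes, as in 255 of 255 rows that fell and 160 of 164 that rose. That level is computed from the mean of the same libraries, and the rows were listed for a low p. Such a result is therefore close to given in advance, and the spread of the control libraries does not enter it.

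The fold changes were recomputed without each CaKO library by an approximation that keeps the implied control level and widens the standard error. All 8 called genes kept their direction each time, and Sf3b5 alone kept its call each time. Without replicate 3 the calls of Snrpd2 (log2 fold change -0.37), Prpf3 (-0.48), Lsm11 (-0.35), Lsm1 (0.43) and Ddx39b (-0.30) ended, leaving 2 genes that rose and 1 that fell. Without replicate 2 those of Snrpb (0.36), Lsm4 (0.52), Lsm11 (-0.36) and Ddx39b (-0.33) ended, which left 1 and 3. Without replicate 1 those of Prpf3 (-0.51) and Ddx39b (-0.31) ended, and without replicate 4 those of Snrpb (0.32) and Lsm4 (0.54). Unchanged fold changes with the precision of 3 libraries would leave 2 and 3, so a lost call does not by itself mark a gene that depends on a library.

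**Figure D3:**
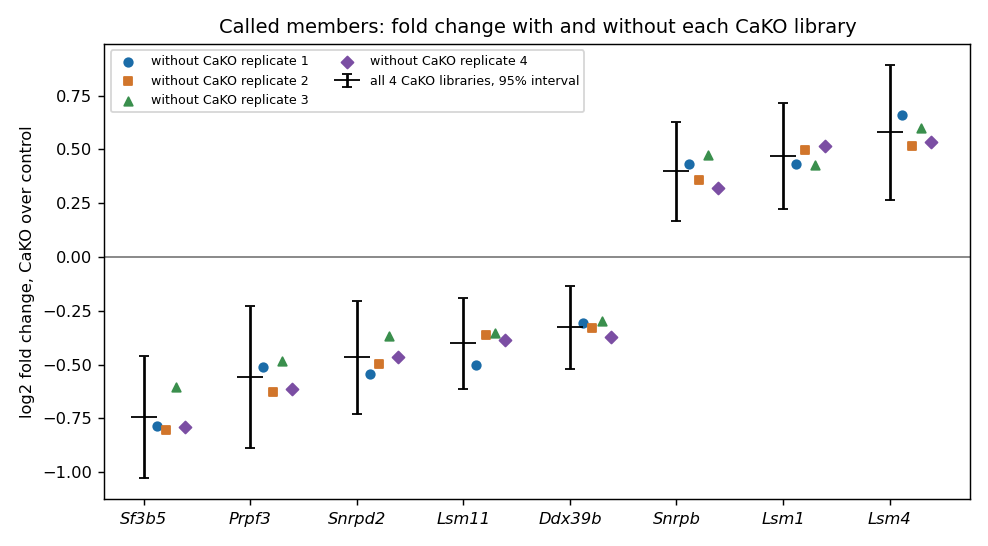
Log2 fold change of the 8 called genes with the 95% interval implied by the deposited p (black), and recomputed without each CaKO library (coloured). Every recomputed value keeps its sign, and the values without replicate 3 are nearest to 0 in the 5 genes that fell.

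The wider RNA-processing machinery gave few calls as well. Over 10 lists of companion genes, with the 9 families left out, 13 of 190 genes were higher and 23 lower at a p below 0.05 per the authors' deposited table, and the median log2 fold change of these 36 was -0.24. Of these, 2 rose (Phf5a and Gemin5) and 2 fell (Ybx1 and Pabpc1), which is 2.11% of the 190, against 3.24% in the background. Gemin5, the subunit of the SMN complex that recognises snRNAs before Sm rings are placed on them, had counts of 409, 395, 376 and 447. It rose by 0.42 on the log2 scale per the authors' deposited table (adjusted p = 0.0126), a call that ended without replicate 4. Ybx1, a cold-shock-domain protein that packages mRNA, had counts of 819, 794, 544 and 933, with replicate 3 lowest. It fell by 0.77 on the log2 scale per the authors' deposited table (adjusted p = 0.000508), and the value without replicate 3 was -0.63, still called. Pabpc1, the cytoplasmic poly-A-binding protein, had counts of 2505, 2050.0, 2067 and 2261. It fell by 0.35 per the authors' deposited table (adjusted p = 0.0130), and its call ended without replicate 2 or 3.

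No other companion gene passed. Of 21 neuronal splicing regulators, 4 were lower and 0 higher, with Celf3 at -0.36 (adjusted p = 0.264) per the authors' deposited table the smallest in p. Its counts of 1188, 889, 688 and 1271 have replicate 3 lowest, as do those of Rbfox3, Nova2 and Srrm3 (shared with the SR-related list), the other listed members. Of 12 genes for recognition of the 3′ splice site, 1 was higher (Phf5a) and 4 lower. Of 25 genes of the Prp19 complex and the catalytic spliceosome, 3 were lower, led by Cwc15 at -0.32 per the authors' deposited table (adjusted p = 0.0633). Of 24 SR-related proteins and coactivators, 3 were higher and 3 lower, led by Rnps1 at -0.35 per the authors' deposited table (adjusted p = 0.129), a gene that the exon junction list shares. That list of 15, with the genes of nonsense-mediated decay, had 2 lower. Of 9 SR protein kinases (Prpf4b among them), Dyrk1a was the sole listed gene, at 0.25 per the authors' deposited table (adjusted p = 0.0808). The lists for 3′ end processing (2 of 18 higher, led by Wdr33 at 0.23, adjusted p = 0.109) and mRNA export (1 higher and 1 lower of 13, led by Ncbp1 at -0.19, adjusted p = 0.252) gave no call per the authors' deposited table. The other general RNA-binding proteins had 3 higher and 7 lower of 46, and the list for SMN and snRNP assembly 2 higher and 1 lower of 12.

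**Figure D4:**
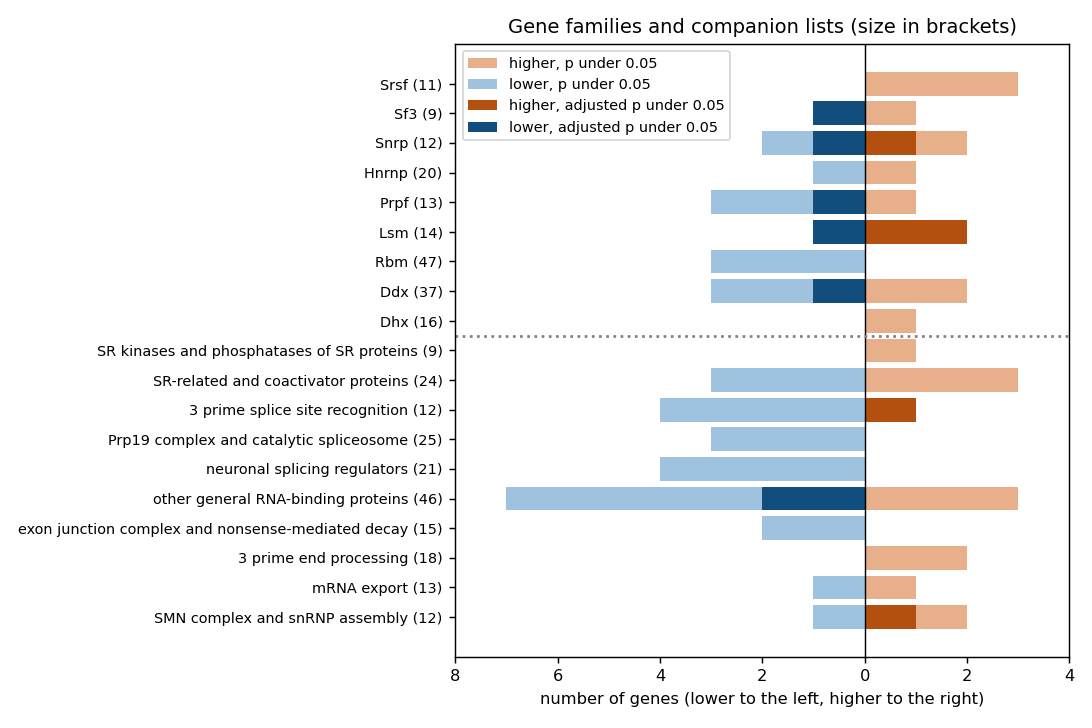
Number of genes lower (left) and higher (right) in CaKO at a p below 0.05 in each family and companion list, with called genes in dark colours and the list size in brackets. Calls are scattered over the Sf3, Snrp, Prpf, Lsm and Ddx families and 3 companion lists, with at most 2 in 1 direction in any of them.

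Markers of cell types moved in the same libraries. Over the 12938 genes in the adjustment, 7.14% were higher, 8.68% were lower and 1.97% fell. Of 10 markers of mature oligodendrocytes, 8 were lower and 4 fell (Mobp, Mbp, Cnp and Mag) per the authors' deposited table. The 8 lower markers had a median log2 fold change of -0.50. Of 10 pyramidal neuron markers, 5 were lower and 2 fell (Cck and Nrgn), with a median of -0.44 per the authors' deposited table. Their summed level over the CaKO libraries ranged from 52093 to 72215 normalised counts, and that of the oligodendrocyte markers from 34904 to 42435. Nrgn, a calmodulin-binding protein of pyramidal neurons, had counts of 13299, 14308, 9047 and 14513, with replicate 3 lowest as in the 5 splicing genes that fell. Of the astrocyte markers 4 of 10 were lower, with 2 that fell (Atp1b2 and Aldoc), and their summed level ranged from 10325 to 12908. The endothelial (2 of 8 lower, Ly6c1 fell) and red blood cell markers (3 of 5 lower, Hba-a1 fell) had summed levels of 1707 to 1781 and 867 to 1405. Among 10 inhibitory neuron markers Npy alone was lower and fell, at 585 to 907. The microglial markers held 1 higher and 1 lower of 10, with Trem2 at 0.32 (adjusted p = 0.302) per the authors' deposited table, and summed to 428 to 467. None of the listed markers was at 0 in a CaKO library, and the others have no row. Of 9 nuclear-retained long non-coding RNAs, a list for nuclear RNA, Mirg alone was listed, at -0.60 per the authors' deposited table (adjusted p = 0.142) and 73.6 to 130.3 counts. The part of these cell types in the changes of the splicing genes was not tested.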

How the data were processed

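Poly-A RNA from the mPFC of 8 mice, 4 CaKO and 4 control, was sequenced, and each library is 1 animal, grouped by the sample titles. The series' design text names TopHat 2.0.12 for alignment to GRCm38 and HTSeq 0.6.1 for counting, and the submitters' processing notes also list DESeq2 1.30.1; use of strand is not given in the sources used here. Each library's values are a signal deposited by the authors, read counts scaled by a library factor: 100% are whole multiples of that library's step, within a tolerance of 0.01. The log2 fold changes, p-values and adjusted p-values are the authors' own, as deposited. For rows with an adjusted p below 1, the adjusted p-values follow the Benjamini-Hochberg method over all 12938 genes in the adjustment (largest relative difference 0.00504), and 325 rows with an adjusted p of 1 were treated as outside it.

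Rows were named by position with GENCODE M21: 2266 matched exactly, 89 by at least 80% mutual overlap on the same strand (Srsf7 among them) and 17 not at all. "Rose", "fell" and "called" refer to an adjusted p below 0.05, "higher" and "lower" to an unadjusted p below 0.05. Means and SDs cover the 4 CaKO libraries. Standard errors and intervals assume that the deposited p comes from a Wald test. A new fit (edgeR) was planned for the case that both groups had counts and was not run, since the control values were not used here. Copies had at least 98% identity over 200 bp and 50% of a transcript (BLAST 2.17.0). Every called member was named, with the most abundant and the most changed member of each family, every called companion gene and, in lists without a call, the gene with the smallest p; the other members were named after their values were seen. The members and lists were chosen with earlier results of these data known. Alternatives were thresholds, matching, families, overlaps and left-out libraries.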

Additional observations from a re-analysis of the deposited data

Results flagged for a closer look

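In Sf3b5, CaKO replicate 3 stood apart, at 198.8 normalised counts against 307.5 to 318.6 in the other libraries. The gap to the nearest library was 0.908 of the whole range of the 4. Of the 28 genes tested in this way it was the sole one, and chance alone marks about 1 in 20 groups. The fall of Sf3b5 was called with and without that library, at log2 fold changes of -0.74 and -0.61.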

How the results depend on the processing

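The 3 genes that rose and 5 that fell became 0 and 1 at an adjusted p below 0.01 and 5 and 5 below 0.10. Leaving out each CaKO library gave 1 to 3 that rose and 1 to 5 that fell, and 3 libraries with unchanged fold changes gave 2 and 3. The 13 higher and 14 lower genes became 7 and 6 at a p below 0.01, 10 and 8 without the Rbm, Ddx and Dhx genes, and 9 to 13 and 8 to 11 with each library left out. The lowest of these, 9 and 8, came without replicate 3. The 2 companion genes that rose and 2 that fell became 1 to 2 and 1 to 2 with each library left out; this and the count at unchanged fold changes were chosen after seeing the data. The median log2 fold change of the 27 genes, -0.19, became 0.21 without the Rbm, Ddx and Dhx genes and lay between -0.20 and -0.16 otherwise. Exact matches and the removal of overlapping genes kept all counts within 1.5 times. Of the 32 left-out fold changes of the 8 called genes, 13 lost the call. Among those of the 20 members named by the rule given above, 0 changed sign. Rescaling the libraries moved 0 of these 20 levels by more than 1 SD. The other members, Snrpf among them, were not counted in these checks. No paired analysis was possible because values of the single control libraries were not used here; for the same reason no control library was left out and no count test was run. The read counts limit precision most for Snrpf, Snrpg, Rbm41 and Prpf3.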
